A study of Mus musculus with 6 samples.

Results

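The replication-dependent histone genes encode the bulk of the H1, H2A, H2B, H3 and H4 proteins that package newly copied DNA. They were taken here as the protein-coding genes on mouse chromosomes 3, 11 and 13 whose RefSeq symbol, current or older, has the form of a clustered histone gene. This rule gave 66 of 21887 protein-coding genes, 63 by their current symbol and 3 (H2aw, H2bu2 and H4bc24) by an older one. The peaks examined were those with a summit within 2 kb of such a gene, 73 of 205844 peaks in the list named FM and 67 of 139164 in the list named KO. Chromosome 13 carries 54 of the genes (Hist1), chromosome 3 carries 10 (Hist2) and chromosome 11 carries 2 (Hist3). By family there were 6 H1, 18 H2A, 18 H2B, 12 H3 and 12 H4 genes.

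Open chromatin was mapped with ATAC-seq (cutting by a transposase) in mouse epiblast stem cells kept on irradiated embryonic fibroblasts with bFGF and Activin A and then aggregated into embryoid bodies in serum for 2 days. Cells lacking Mixl1 (knockout) were set beside Mixl1-inducible lines given 1 µg/mL doxycycline for the last 24 h, with 3 libraries of 50000 cells each. Mixl1 is a homeobox factor of the primitive streak. Doxycycline is recorded for the inducible lines only, so effects of Mixl1, doxycycline and cell line cannot be told apart. The deposited data hold 1 peak list on mm10 for each group, so no value has a replicate error. No label explains the name FM, and that list was taken as the induced one because the other is named for the knockout. The labels do not say whether the libraries of a group came from separate cultures, nor which part of Mixl1 was altered.

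These genes are short, lack introns and are transcribed mainly in S phase. Their mRNAs end in a stem-loop bound by SLBP in place of a poly(A) tail, and NPAT gathers at the clusters in a nuclear structure called the histone locus body. Many H2A and H2B genes lie head to head and share the stretch of DNA between their starts. As a check of the labelled cell type, all 6 epiblast genes looked up (such as Pou5f1 and Otx2) had a peak within 2 kb in both lists, as did all 5 fibroblast genes and 3 of 4 genes of unrelated organs, so this measure did not separate those cell types. In a bulk sample, fewer cells with an open promoter and a less open promoter in every cell cannot be told apart.

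Promoter windows came from RefSeq (GRCm38.p6, the assembly that mm10 names), from 250 bases before to 50 after the start, and were found for 61 of the 66 genes. H3c1, H3c7, H4c14, H2bc4 and H2bc21 were not matched. The sequences below are the 200 bases before the start, written 5′ to 3′ on the gene's strand. Capitals mark exact matches on either strand to TATAAA (the box bound by TBP), CCAAT (bound by NF-Y), ATTTGCAT (the octamer of H2B promoters), AAACACA (the H1 box), GGTCCG (the core of the H4 element bound by HINFP), the E2F motifs TTTCGCGC and TTTGGCGC, and GGGCGG (the GC box). The first 4 are the promoters of highest FM fold among the start-site summits of the H2A, H3, H4 and H1 families, shown for the different elements each carries: H2ac6 at chr13:23683960-23684159 (- strand), H3c6 at chr13:23562386-23562585 (- strand), H4c4 at chr13:23581368-23581567 (+ strand) and H1f4 at chr13:23622559-23622758 (- strand).
H2ac6: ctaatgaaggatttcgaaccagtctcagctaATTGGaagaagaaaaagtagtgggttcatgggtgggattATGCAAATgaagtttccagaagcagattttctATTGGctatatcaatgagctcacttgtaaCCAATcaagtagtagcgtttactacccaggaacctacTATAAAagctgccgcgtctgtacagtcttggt
H3c6: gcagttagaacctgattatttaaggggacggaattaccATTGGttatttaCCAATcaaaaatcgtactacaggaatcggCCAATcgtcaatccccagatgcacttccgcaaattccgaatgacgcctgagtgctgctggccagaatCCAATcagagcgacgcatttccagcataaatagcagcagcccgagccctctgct
H4c4: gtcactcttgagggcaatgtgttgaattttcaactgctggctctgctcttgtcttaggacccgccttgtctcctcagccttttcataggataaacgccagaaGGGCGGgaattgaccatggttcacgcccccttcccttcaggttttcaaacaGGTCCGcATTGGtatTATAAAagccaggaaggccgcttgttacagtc
H1f4: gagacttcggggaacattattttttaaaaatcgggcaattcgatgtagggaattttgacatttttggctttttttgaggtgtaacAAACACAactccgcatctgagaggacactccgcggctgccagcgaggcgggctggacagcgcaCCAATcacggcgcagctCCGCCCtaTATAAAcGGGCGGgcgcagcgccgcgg
The promoter of H2ac6 held an octamer and several CCAAT boxes, that of H4c4 the GGTCCG core next to CCAAT and TATA matches, and that of H1f4 an H1 box upstream of CCAAT, GC box and TATA matches. The next sequences belong to members expressed in the testis, shown because their promoters had no peak or only a weak one: H2bc1 at chr13:23934157-23934356 (- strand) and H1f6 at chr13:23695611-23695810 (+ strand).
H2bc1: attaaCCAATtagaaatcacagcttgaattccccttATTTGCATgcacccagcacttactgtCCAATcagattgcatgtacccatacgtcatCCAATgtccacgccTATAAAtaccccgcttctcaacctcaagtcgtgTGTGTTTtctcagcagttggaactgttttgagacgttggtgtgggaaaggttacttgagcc
H1f6: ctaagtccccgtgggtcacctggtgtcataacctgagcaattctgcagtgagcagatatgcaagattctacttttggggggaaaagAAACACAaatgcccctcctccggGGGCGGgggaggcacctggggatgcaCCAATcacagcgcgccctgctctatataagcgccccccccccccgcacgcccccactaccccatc
The last pair, H2bc23 at chr13:21810200-21810399 (- strand) and H4bc24 at chr13:21833543-21833742 (+ strand), is shown because these sequences are the same letter for letter. H4bc24 is counted as an H2B gene from its older symbol, Hist1h2br.
H2bc23: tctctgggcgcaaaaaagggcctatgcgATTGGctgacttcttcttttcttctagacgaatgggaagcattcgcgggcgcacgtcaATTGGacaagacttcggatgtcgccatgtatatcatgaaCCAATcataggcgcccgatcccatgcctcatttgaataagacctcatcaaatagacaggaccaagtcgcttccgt
H4bc24: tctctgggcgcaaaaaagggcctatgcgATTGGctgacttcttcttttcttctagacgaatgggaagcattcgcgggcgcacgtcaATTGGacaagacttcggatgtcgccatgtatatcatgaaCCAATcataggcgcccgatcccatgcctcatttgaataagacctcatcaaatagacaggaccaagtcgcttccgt

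Almost every replication-dependent histone gene lay in accessible chromatin in both lists. In the FM list 64 of 66 genes (97.0%, exact binomial interval 89.5 to 99.6) had a peak summit within 2 kb, against 80.5% of all protein-coding genes. In the KO list 61 of 66 did (92.4%, interval 83.2 to 97.5), against 79.3%. A peak in both lists was found for 61 genes, against 77.9% of all genes. The FM list alone had a peak at 3 genes (4.55%, against 2.61%), and the KO list alone at 0 genes, against 1.33%, which allows a share of up to 5.44% by the exact interval. With 50000 peaks taken from each list, or at −log10 q of at least 10, these counts became 2 genes in FM only and 3 in KO only, so their order turned. No peak of either list was found at 2 genes (3.03%, against 18.1%). The intervals cover the counting of genes only, and they treat genes near the same peak as independent, which these are not.

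The window favours long genes, and the median histone gene spanned 493 bp against 17.2 kb for all protein-coding genes. Among the 1517 other protein-coding genes of at most 1 kb, 13% (interval 11.3 to 14.8) had an FM peak and 10.0% (interval 8.55 to 11.6) a KO peak. The histone genes thus stood with the longer genes and apart from most genes of their own length.

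**Figure D1:**
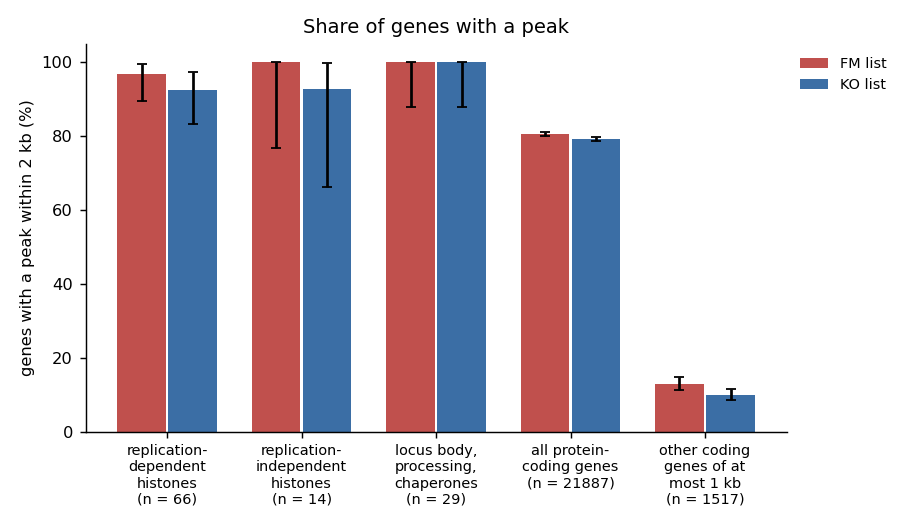
Share of genes (%) with a peak summit within 2 kb in the FM and KO lists, for the histone genes, the comparison sets and all protein-coding genes, with exact 95% binomial intervals as error bars. The bars of the 66 histone genes stand at 97.0% and 92.4%, and those of other genes of at most 1 kb at 13% and 10.0%.

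Fold enrichment, the authors' value for a summit over its local background, set the members in the upper part of each list but not at its top. The strongest peak of a gene had a median fold of 4.01 in the FM list (64 genes, range 1.88 to 5.19) and 4.38 in the KO list (61 genes, range 2.15 to 6.19). All protein-coding genes with a peak had medians of 3.65 and 4.36, so the members' folds lay near those of other genes. As a percentile among all peaks of its list by fold, the median was 96.3 in FM and 93.5 in KO. Over all protein-coding genes with a peak it was 95.3 and 93.5. The strongest peak was in the top 10% by fold for 56 of 66 genes in the FM list (84.8%, against 57.9% of all genes) and for 55 in the KO list (83.3%, against 51.9%). The best rank of a member peak by fold was 3241 in FM and 3520 in KO. These ranks come from lists of different lengths and show no change between the groups.

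Close spacing means that many peaks lie within 2 kb of several members. Of the 73 FM peaks 41 were near more than 1 histone gene, and of the 67 KO peaks 39 were, with at most 3 genes a peak. In addition, 5 members are annotated as longer than 3 kb, H2bc6 with 37.5 kb being the longest, and their windows reach the promoters of neighbours. A summit within 300 bp of the RefSeq start was therefore also examined, a measure chosen after the data were seen. It was present in the FM list for 55 of 61 genes (90.2%, against 67.9% of 17492 protein-coding genes) and in the KO list for 52 (85.2%, against 65.8%). Both lists had one at 49 genes (80.3%, against 63.3%), FM alone at 6 (9.84%, against 4.60%), KO alone at 3 (4.92%, against 2.46%) and neither at 3 (4.92%, against 29.6%).

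**Figure D2:**
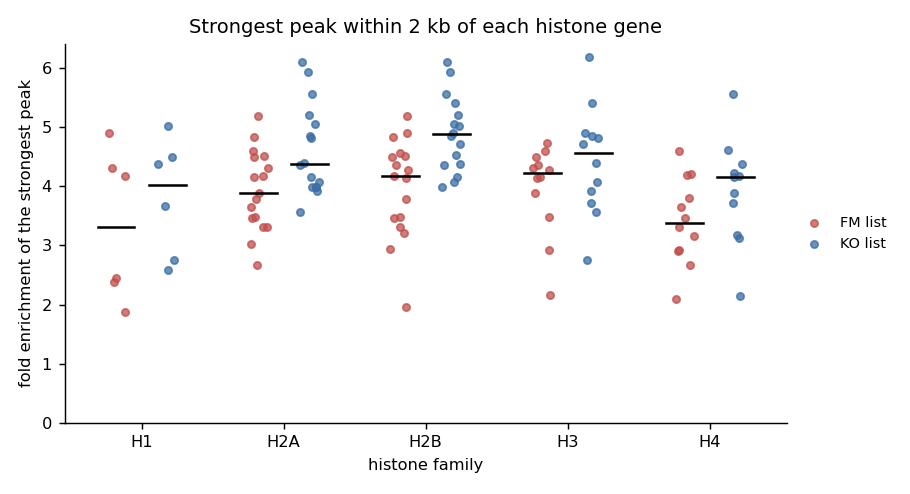
Fold enrichment of the strongest peak within 2 kb of each histone gene, by family, in the FM list (red) and KO list (blue). Each point is a gene, genes near the same peak share a value, and bars are medians. The lowest FM points were 1.88 in H1, 1.96 in H2B, 2.10 in H4, 2.16 in H3 and 2.67 in H2A. The lowest KO point was H4c2 at 2.15.

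The H1 genes encode the linker histones that bind where DNA enters and leaves the nucleosome. H1f4 had the highest fold of the family, 4.89 in FM and 5.02 in KO, with summits 38 and 25 bp after its start. H1f2 followed with 4.31 and 4.49, and H1f3 with 4.18 and 3.66. These 3 genes lay above the remaining H1 genes in the FM list. H1f5 had start-site folds of 2.32 and 2.39 and H1f1 had 2.39 and 2.00. H1f6, which encodes the testis linker histone H1t, had a weak FM summit 28 bp before its start (fold 1.76, −log10 q 2.82) and another in the gene (fold 1.88, −log10 q 3.89), but no KO summit within 300 bp of its start. The KO peak assigned to it by the 2 kb rule, with a fold of 4.37, lay 1963 bp away at the start of H4c3. Of the 6 H1 promoters 5 held the H1 box AAACACA, against 6.15% of protein-coding promoters, and all 6 held CCAAT, against 38.2%.

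H2A and H2B form the dimers that flank the H3-H4 core of the nucleosome. H2ac6 had the highest FM fold of all members, 5.19, and 5.93 in the KO list, from a summit between it and H2bc4. H2ac22 and H2bc22 shared a summit of fold 4.83 in FM and 6.10 in KO, the KO value with a −log10 q of 142. H2ac10 was listed with 4.60 and 3.92, but this peak lay at the start of H3c8. At its own start H2ac10 had no FM summit and a KO summit of fold 1.99. H2bc6 was likewise listed with the H1f4 peak, and its own start-site summits had folds of 2.28 in FM and 4.40 in KO. By the strongest peak within 2 kb, H2aw with 3.03 and 3.99 and H2bu2 with 2.94 and 4.38, both of the Hist3 cluster, were at the low end in FM. At their own starts other genes were lower in FM. H2ac21 had 1.77 in FM and 3.11 in KO, H2ac4 had 2.06 and 2.11, and H2ac24 had 2.03 and no KO summit. H2bc6 was below H2bu2. H2ac23 and H2bc23, described below, were also low in FM and had no KO peak. In KO, H2aw and H2bu2 lay somewhat below or near their family medians (4.37 for H2A and 4.87 for H2B) but were not the lowest.

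Both starts were known for 10 head-to-head pairs of an H2A and an H2B gene, 164 to 281 bp apart. The FM list had a summit at 9 of these pairs and the KO list at 7, and in every such case the strongest summit lay between the starts. By gene, 18 of the 20 paired genes had a start-site summit in FM and 14 in KO. Of the other 41 members with a known start, 37 and 38 had one. Over all protein-coding genes the shares were 67.9% and 65.8%, so the KO share of the pairs was near that of all genes. The summits of the pairs had a median fold of 3.78 in FM (range 1.96 to 4.83) and 4.85 in KO (range 4.06 to 6.10). After H2ac22 and H2bc22, the strongest in FM were H2ac15 with H2bc15 (4.52 in FM and 5.21 in KO), H2bc7 with H2ac7 (4.50 and 4.85) and H2ac8 with H2bc8 (4.17 and 4.35). H2ac12 with H2bc12 (3.78 and 5.04), H2bc13 with H2ac13 (3.48 and 4.06) and H2ac11 with H2bc11 (3.47 and 4.15) followed. Each of these 7 pairs had exactly 1 summit row per list, so both genes have the same value. Among H2B genes outside these pairs, H2bc14 had start-site folds of 4.57 in FM and 4.53 in KO, and H2bc18 4.35 and 5.40. H2bc3 had 4.28 and 4.90, and H2bc9 4.14 and 4.71. H2bu2 (2.94 and 4.38) and H2bc6 (2.28 and 4.40) were lower in FM. All these values lay in the wide range of the pairs. H2bc14 and H2bc3 share their peaks with the nearby pseudogenes H2ac14 and H2ac5-ps. The octamer ATTTGCAT was found in 7 of 18 H2A and 7 of 17 H2B promoter windows, against 1.66% of protein-coding promoters, and windows of paired genes overlap. CCAAT was in all of these windows, and the E2F motif TTTCGCGC in 5 of the H2A and 4 of the H2B windows, against 0.451%.

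Among the H3 genes, H3c6 had the highest folds, 4.73 in FM and 6.19 in KO, the latter the highest KO fold of all members. H3c8 had 4.60 and 3.92, with summits 107 and 117 bp before its start. H3c4 was listed with 4.50 and 4.85 from the peak between H2bc7 and H2ac7, while its own start-site summits had folds of 2.42 and 2.00. The lowest H3 gene was H3c11, with 2.16 in FM and 2.75 in KO. H3c1 had 2.92 and 3.71, from the peak at the start of H4c1. At their own starts H3c10 and H3c3 had a KO summit (folds 1.96 and 2.43) and no FM summit. All 10 H3 promoters held CCAAT, and 4 held TATAAA.

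By the strongest peak within 2 kb, the H4 genes had the lowest median folds of the core histone families, 3.38 in FM and 4.15 in KO. At their own starts the H4 medians were 3.04 and 3.44, close to the 3.19 and 3.47 of the H3 genes. H4c4 had 4.60 in FM and 3.18 in KO, and H4c12 had 4.18 and 4.60. H4c11 was listed with 4.21 and 4.17 from summits 1344 and 758 bp away, whereas its start-site folds were 1.81 and 2.08. H4c2 was the weakest H4 gene with a peak in both lists, at 2.10 and 2.15. At their own starts H4c9 (1.98 and 2.56) and H4c8 (2.25 and 3.12) were also low. H4c1 (2.92 and 3.71), H4c6 (3.16 and 3.88) and H4c3 (3.30 and 4.37) lay between these and H4c12. The encoded H4 proteins are nearly the same, so genes for 1 protein spanned most of the range of folds seen among members. Of the 11 H4 promoters 10 held GGTCCG, against 10.5% of protein-coding promoters, and 8 held TATAAA, against 12.6%. These matches count anywhere in the window on either strand. On the gene strand, starting 40 to 20 bases before the start, TATAAA was in 1 of the 11 H4 promoters. There it was in 19.4% of all member windows, against 2.53% of protein-coding promoters. CCAAT was in 3 of 11, unlike in the other families. Motif matches are descriptions of these windows and do not show that a factor was bound.

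**Figure D3:**
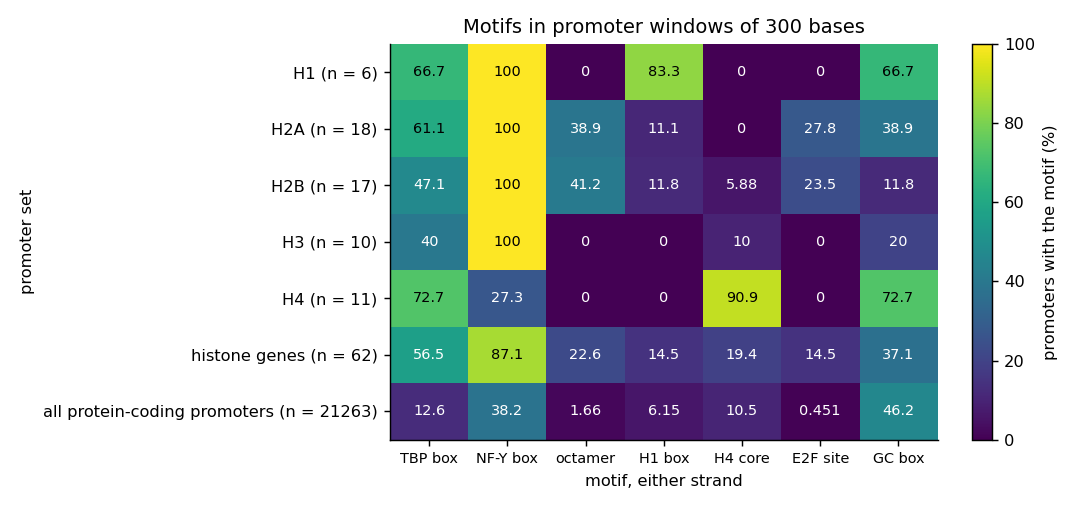
Share of promoter windows of 300 bases (%) with each motif on either strand, by histone family and for all protein-coding promoters; TBP box is TATAAA, NF-Y box CCAAT, octamer ATTTGCAT, H1 box AAACACA, H4 core GGTCCG, E2F site TTTCGCGC and GC box GGGCGG. The H1 box stands out in H1 (83.3%), the H4 core in H4 (90.9%) and the octamer in H2A and H2B (38.9% and 41.2%).

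Base composition, which the choice of genes did not use, varied among the promoters. Their GC content ranged from 33.3% to 72.7% with a median of 45.3%, against a median of 56.3% for protein-coding promoters. The median ratio of observed to expected CpG was 0.748, against 0.567. Summits lay mainly just before the start, at a median of −55 bp in FM (55 genes) and −39 bp in KO (52 genes), compared with 1 bp and −26 bp over all protein-coding genes. They lay before the start in 42 of 55 genes in FM (76.4%, against 49.6% of all protein-coding genes with such a summit) and 38 of 52 in KO (73.1%, against 61.8%). The KO median of all genes lay inside the interval of the members' median (−55 to −19 bp). This interval treats genes as independent, which paired genes with a shared summit are not, so no conclusion is drawn from it. The position differed by family. H2B summits had medians of −82 and −75 bp and H3 summits −45 and −26 bp, whereas H4 summits had medians of 22 and 10.5 bp. For paired H2A and H2B genes the position is fixed in part by the shared summit. No source used here states a read shift for the transposase, and offsets of a few bases are not interpretable.

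**Figure D4:**
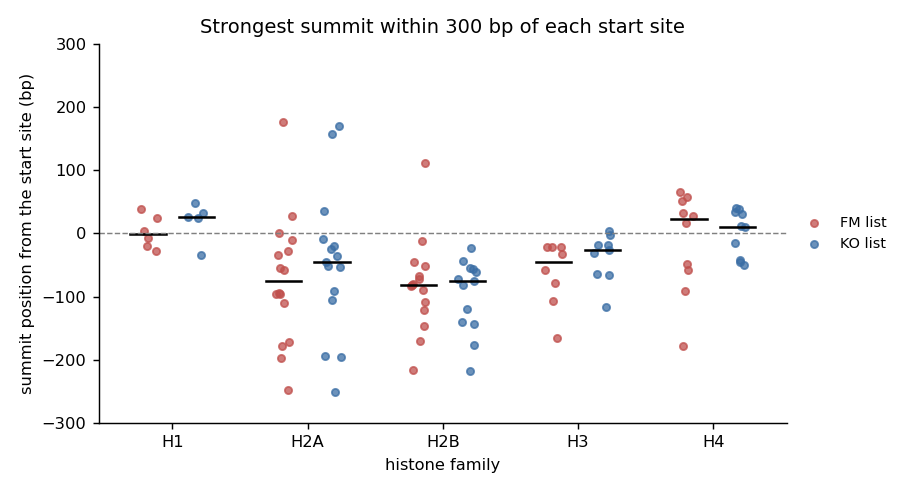
Position of the strongest summit within 300 bp of the RefSeq start (bp, negative before the start) by family in the FM and KO lists; each point is a gene and bars are medians. H2B and H3 points lie mostly below 0, and H4 points scatter around it with medians of 22 and 10.5 bp.

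The genes with a peak in the FM list only, H2bc23, H2ac23 and H4c17, are neighbours on chromosome 13 between 21806412 and 21812150. The FM list had a weak peak between H2bc23 and H2ac23 (chr13:21810173-21810403, fold 1.96, −log10 q 4.27), near the median fold of all FM peaks (1.96), and a stronger one near H4c17 (chr13:21812072-21812369, fold 2.67, −log10 q 11.9). These genes have near copies farther along the same block, H4bc24, H2ac24 and H4c18. The windows of H2bc23 and H4bc24 matched at 300 of 300 bases, as printed above. H4c17 and H4c18 shared an unbroken run of 285 bases, and H2ac23 and H2ac24 one of 200 bases. Over 1880 pairs of members whose windows do not overlap, the median longest shared run was 9 bases, and 7 pairs shared at least 100. Outside this block those were H3c14 with H3c15 (231 bases) and H2ac18 with H2ac19 (219 bases).

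The copies did not have the same peaks. H4c18 had start-site summits of fold 3.21 in FM and 5.56 in KO, while its near copy H4c17 had no start-site summit in either list. The H2ac24 and H4bc24 pair had an FM summit of fold 2.03 (−log10 q 4.86), close to the 1.96 of the H2bc23 and H2ac23 pair, and neither pair had a KO summit between its starts. By the 2 kb rule H2ac24 and H4bc24 count as having a KO peak, but it was that of H4c18. Short reads from identical stretches cannot be assigned to 1 copy, and the authors' treatment of such reads is not stated. Their part in the values of this block, and of the near copies on chromosome 3, was not tested.

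H2bc1 and H2ac1, which encode the H2B and H2A variants of testis germ cells, were the members without a peak in either list. They are a head-to-head pair with starts 281 bp apart, the widest of the 10, at the end of the chromosome 13 cluster (chr13:23933725-23934913). The printed H2bc1 promoter held the octamer, CCAAT boxes and a TATAAA match, motifs also present in the printed H2ac6 promoter. Its TATAAA match lay farther before the start than those printed for H2ac6 and H4c4. Whether promoter sequence bears on the missing peaks was not tested. H2bc1, H2ac1 and H1f6 were the 3 testis members of the set, and none had a KO summit within 300 bp of its start. This was not particular to them, as H2bc23, H2ac23, H4c17, H2ac24, H4bc24 and H3c14 lacked one too. Such a KO summit was present for 52 of 61 members, against 65.8% of protein-coding genes. In FM, H1f6 had a weak start-site summit (fold 1.76).

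The share of a cluster's peaks that lay at its genes differed between blocks. Around the second chromosome 13 block (23531044 to 23934913, 31 members), windows of 2 kb around members covered 33.1% of the length and held 31 of 43 FM peaks (72.1%) and 32 of 40 KO peaks (80%). Around the first block (21715711 to 22043658, 23 members) the windows covered 24.3% and held 26 of 52 FM peaks and 19 of 56 KO peaks. There most KO peaks lay away from members. The remaining peaks of the first block had a median fold of 2.26 in FM, against 2.36 at members, and of 3.04 in KO, against 4.06. In the Hist2 block on chromosome 3 (96219885 to 96270192), where the windows covered 54.4%, 12 of 13 FM and 12 of 14 KO peaks were near members. In this block H3c13 and H2bc18 lay beside a region with a summit of fold 4.35 in FM and 5.40 in KO, 84 and 57 bp before the start of H2bc18, while the start-site summit of H3c13 itself had folds of 2.66 and 3.47. H2ac18 had 4.15 and 4.40 and its near copy H2ac19 had 3.88 and 4.81. H3c15 had start-site folds of 3.37 and 3.51, and its near copy H3c14 had 3.01 in FM and no KO summit. The neighbours H2ac20, H2ac21 and H2bc21 shared a peak of fold 3.31 in FM and 3.98 in KO, and H4c14 had 3.81 and 4.22. Every Hist2 gene thus had a peak within 2 kb in both lists. Median folds of the strongest peak per gene were 4.16 in FM and 4.37 in KO for Hist1, 3.88 and 4.40 for Hist2, and 2.99 and 4.19 for the 2 Hist3 genes.

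Of the 73 FM member peaks, 59 (80.8%, interval 69.9 to 89.1) overlapped a KO peak by at least 1 bp, and of the 67 KO member peaks 59 (88.1%, interval 77.8 to 94.7) overlapped an FM peak. Over all peaks within 2 kb of a protein-coding gene the shares were 50.7% and 75.7%. The 14 FM peaks without a KO counterpart had a median fold of 2.00, against 3.21 for the overlapping ones. The strongest lay before H3c14 on chromosome 3 (chr3:96246249-96246867, fold 3.01, −log10 q 25.8), and H3c14 had no KO summit within 300 bp of its start. Its promoter window shares a run of 231 bases with that of H3c15, which had a start-site summit in both lists. Reads from such a run cannot be assigned to 1 copy, and their part here was not tested. The 8 KO peaks without an FM counterpart had a median fold of 1.99. The strongest of these lay beside H3c1 (chr13:23762244-23762800, fold 2.59, −log10 q 33.8). At the edge of the rule, the farthest FM and KO summits inside lay 1853 and 1799 bp from a member (folds 2.13 and 2.19), and the nearest outside 2309 and 2881 bp (folds 1.94 and 3.67).

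The order of the members in the lists was compared by correlation, as a description. Over 49 genes with a start-site summit in both, Pearson's r of log2 fold was 0.80 and Spearman's rho 0.731. Paired genes share summits, so these points are not independent. For the strongest peak within 2 kb, another measure, the values were 0.66 and 0.566 over 38 distinct pairs of an FM and a KO peak. A peak can recur in these pairs. The KO peak at H4c3 (fold 4.37) was also paired with an FM peak of H1f6 (fold 1.88). Over all 11075 protein-coding genes with a start-site summit in both lists the values were 0.88 and 0.883. The KO fold was the higher number at 42 of the 49 genes, against 79.6% of all genes, so that the members followed the general offset between the lists. The 7 genes with the higher number in FM were H2bc14, H3c8, H1f3, H3c4, H4c4, H3c2 and H1f1. H4c4 had the widest gap among them, 4.60 in FM and 3.18 in KO. H3c8 had 4.60 and 3.92, H3c2 4.30 and 3.56, and H1f3 4.18 and 3.66. Folds of separately called lists are not on a common scale, and without replicates no difference between the groups was tested.

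**Figure D5:**
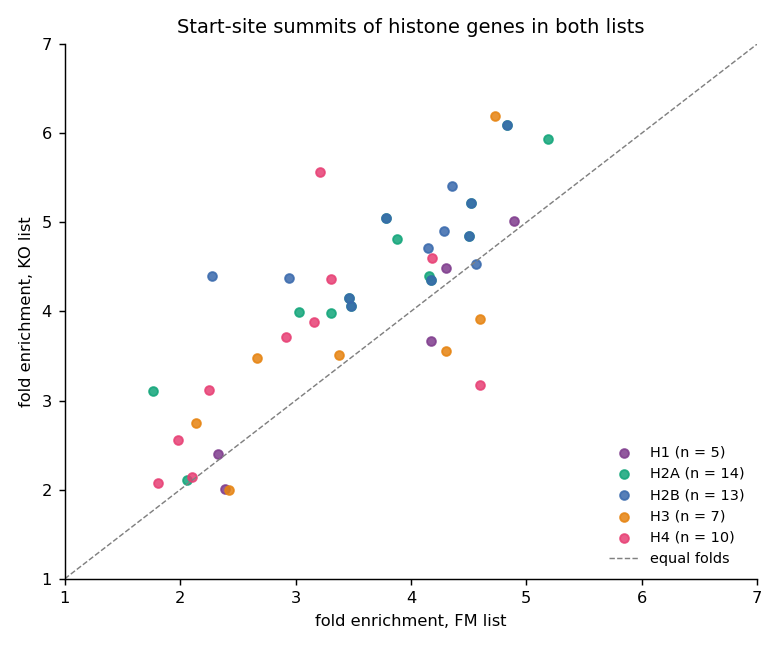
Fold enrichment of the start-site summit in the FM list (x axis) and KO list (y axis) for the 49 histone genes with one in both, coloured by family; the dashed line marks equal folds, and genes sharing a summit coincide. Most points lie above the line (42 of 49), and H4c4 lies farthest below it at 4.60 and 3.18.

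Other genes of the histone system gave a frame for these values. Of 29 genes of the histone locus body, histone mRNA processing, chaperones and cell cycle control, all 29 had a peak in both lists, with a median strongest fold of 4.87 in FM and 5.97 in KO. Npat, the locus body organiser, had 7.24 and 10.0, higher than any member, Asf1b, a histone chaperone, had 7.05 and 7.64, and Casp8ap2, another locus body component, 6.70 and 8.29. Slbp, the stem-loop binding protein gene, had 4.08 and 5.84. Of 14 histone genes listed as replication-independent, 14 had an FM peak and 13 a KO peak, with medians of 3.61 and 4.04. Most of these are made throughout the cell cycle or are specialised variants. The list also held the H4 gene H4f16 (439 bp), for which the label was not checked. H2az2 and H2az1, encoding H2A.Z, had 6.98 and 7.75, and 4.88 and 5.54, and H2ax 4.60 and 5.34. H1f8, the oocyte linker histone gene, had only an FM peak (fold 2.08). These lists are small and no test between them and the members was made.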

How the data were processed

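The 2 deposited peak lists in narrowPeak layout were used, 1 for each group. The submitters' processing notes name MACS2, Bowtie2, SAMtools and bcl2fastq, and mm10 as build. The pooling of libraries, the read shift and duplicate filters are not stated there, and depth in reads is unknown. The authors' deposited values are fold enrichment over local background (a ratio) and the −log10 q-value and p-value. The deposited score column was not analysed. The lowest −log10 q in both lists was 1.30.

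Of rows with the same start and end the most significant was kept, on assembled chromosomes only. Start-site summits used every row. Genes and promoters came from RefSeq GRCm38.p6. Python 3.11.15, pandas 2.3.3 and SciPy 1.17.1 were used, with exact (Clopper-Pearson) intervals at a level of 95%. Distances and overlaps were tested on simulated data. Members and lists were chosen with earlier results of these data known. Named per family are the 3 highest and 2 lowest genes by FM fold, all members in 1 list or none, and testis members; other members were named after their values were seen. The comparison lists name the 3 of highest FM fold and any gene in 1 list only, and Slbp was added later. Alternatives covered the window, q thresholds, equal list sizes, ranking, overlap and membership.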

Additional observations from a re-analysis of the deposited data

How the results depend on the processing

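Of 76 recomputed values over 12 alternative settings, 58 stayed close to the reported value, within 1.5 times for counts and within the interval for medians and shares. The counts of genes with an FM peak, a KO peak or a peak in both lists did so under every setting run (lowest 55, 52 and 49, with start-site summits). Genes in the FM list only rose from 3 to 6 within 1 kb and with start-site summits, and to 5 within 5 kb. Genes in the KO list only went from 0 to 1 at −log10 q of at least 5, and to 3 at 10, with 50000 peaks of each list and with start-site summits, while FM-only genes were 2 under those q and 50000-peak settings. The median percentile fell with fewer weak peaks in the ranking, to 94.2 (FM) and 88.8 (KO) at −log10 q of at least 5, 86.3 and 78.0 at 10, and 86.4 and 82.0 with 50000 peaks. Ranked among peaks near protein-coding genes the KO median was 90.9. FM member peaks fell from 73 to 45 at −log10 q of at least 10 and with 50000 peaks. A reciprocal overlap of at least 50% lowered the shared shares to 67.1% (FM) and 73.1% (KO). Start-site, symbol and gene length settings were chosen after seeing the data. No replicate could be left out, and no paired analysis was possible because each group has a single pooled list and no test was made.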

Other observations

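The first chromosome 13 histone block is interleaved with tRNA genes, transcribed by RNA polymerase III. RefSeq places 77 tRNA genes in the span from the first to the last member on chromosome 13. Most of them lie between the blocks, and none lies inside the second block. A summit within 200 bp was found for 25 of them in the FM list (32.5%, exact interval 22.2 to 44.1) and for 53 in the KO list (68.8%, interval 57.3 to 78.9), although the KO list is the shorter one. Among the 331 tRNA genes elsewhere the counts were 110 (33.2%) and 159 (48.0%). Median folds at the tRNA genes of the span were 2.40 in FM and 2.84 in KO, below those of the histone genes. This measure was chosen after the data were seen, tRNA genes lie close together and have near-identical copies, and no test was made.

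The 1483 kb between the chromosome 13 blocks held 41 protein-coding genes, 36 of them vomeronasal receptor genes, which act in pheromone sensing. A peak within 2 kb was found at 5 of the 41 genes in each list, and Vmn1r223 was the vomeronasal gene among them.

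The histone pseudogene H2ac5-ps had a summit 4 bp away in FM (fold 4.28) and 2 bp away in KO (fold 4.90), in the region between H3c3 and H2bc3. These are the summits already given for H2bc3. The pseudogenes H2ac14 and H2bu1-ps likewise lay near the peaks of H2bc14 and H2aw. The transcribed pseudogene H2af-ps2, farther along chromosome 13 (51200084 to 51203066), had a KO peak (fold 4.25, −log10 q 37.8) and no FM peak. Hils1, a spermatid linker histone gene on chromosome 11, had an FM peak 1192 bp away (fold 1.77) and no KO peak.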
